A study of Homo sapiens with 10 samples.

Results

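The human genome carries a large share of its zinc finger genes on chromosome 19, and the promoters of these genes were examined here for 2 histone acetylation marks. The genes were chosen by name: protein-coding genes of GENCODE release 44 on chromosome 19 whose symbol is ZNF followed by a number, with or without a closing letter. This gave 246 genes of 20033 protein-coding genes, and 240 of the symbols end in the number itself. They make up 16.7% of the 1476 protein-coding genes of the chromosome and 48.4% of the 508 ZNF-numbered genes of the genome. For comparison, the 262 ZNF genes of other chromosomes, the other 1230 genes of chromosome 19 and all protein-coding genes were measured in the same way.

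Most ZNF genes encode proteins with tandem C2H2 zinc fingers, each of which contacts a few bases of DNA, and many also carry a KRAB domain at the amino terminus. The KRAB domain binds TRIM28, which brings the histone methyltransferase SETDB1 and HP1 proteins to the bound site, and retroelements are the best known targets. The genes arose by repeated local duplication, so neighbours in a cluster are often close relatives in sequence. The acetyl mark on lysine 27 of histone H3 (H3K27ac) and that on lysine 18 (H3K18ac) are found at active promoters and enhancers.

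The study compared C4-2B, a castration-resistant prostate adenocarcinoma cell line, with C4-2BER, an enzalutamide-resistant derivative of it with neuroendocrine-like (NE-like) features that is grown in the continued presence of the drug. Enzalutamide is a drug used against prostate cancer. Cells of both lines were fixed with disuccinimidyl glutarate and then formaldehyde, and each mark was profiled by ChIP-seq in 2 libraries per cell line (8 in all), beside 1 input library per line. The series holds a single resistant line, so its libraries are not separate derivations of resistance. The authors merged the libraries of a mark and line before they called peaks, so each of the 4 peak lists is 1 pooled value without replicate error, and no test between the lines was possible. The lists hold no read counts, and the depth behind them is unknown. The lists held 68034 H3K27ac peaks in C4-2B and 72971 in C4-2BER, and 198451 and 197948 H3K18ac peaks.

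A gene was counted as having a peak where a peak lay within 1000 bp of its canonical transcription start site (TSS). The height of a peak is its fold enrichment, which the authors' peak caller gives as a ratio to the local background of the same list. The ratio between C4-2BER and C4-2B therefore also carries differences in background and pull-down between the lists. As a check of the labels, the adenocarcinoma markers KLK2, KLK3 and TMPRSS2 had promoter peaks of both marks in both lines, C4-2BER included. Of the NE markers, CHGA and NCAM1 had no H3K27ac peak in either line. For ENO2 the H3K27ac fold enrichment was 4.00 in C4-2B and 7.30 in C4-2BER, and for SYP it was 8.16 and 5.67. ENO2 was thus higher in C4-2BER and SYP higher in C4-2B.

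Nearly all chromosome 19 ZNF promoters were acetylated. H3K27ac peaks were found at 228 of the 246 genes (92.7%) in C4-2B and at 225 (91.5%) in C4-2BER, where all protein-coding genes gave 69.1% and 69.6%. H3K18ac peaks were found at 237 (96.3%) and 229 (93.1%), compared with 83.8% and 81.1% of all genes. Peaks of both marks in both lines were present at 221 ZNF genes (89.8%), as compared to 85.5% of ZNF genes on other chromosomes, 65.4% of the other chromosome 19 genes and 66.4% of all genes. No peak in any list was found at 8 ZNF genes (3.25%, against 13.9% of all genes). No ZNF gene had more than 1 peak in its window.

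Within a cell line the marks occurred together. Both marks were present at 227 ZNF promoters in C4-2B and 224 in C4-2BER, H3K18ac alone at 10 and 5, and H3K27ac alone at 1 in each line. The 17 genes with peaks in 1 to 3 lists were all weakly enriched, with fold enrichments between 2.07 and 5.02. Without ZNF585A and ZNF835, which were picked out after their values were seen, the other 15 lay between 2.07 and 3.86. These heights are near the lower end of the lists, where the lowest promoter peak of any gene was between 1.85 and 2.06.

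The 246 genes fell into 10 clusters of at least 5 genes with TSSs no more than 500000 bp apart, which held 232 of them, and 14 genes lay outside. The clusters are numbered here from the short arm end of the chromosome to the long arm end. Cluster 10, at the end of the long arm, held 43 genes, cluster 8 held 39, and cluster 4, next to the centromere, held 37. The share of genes with peaks in all 4 lists was 73.0% in cluster 4 (27 of 37) and at least 80.0% in each of the others. In clusters 1, 5, 6 and 9 every gene had an H3K27ac peak in C4-2BER.

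**Figure D1:**
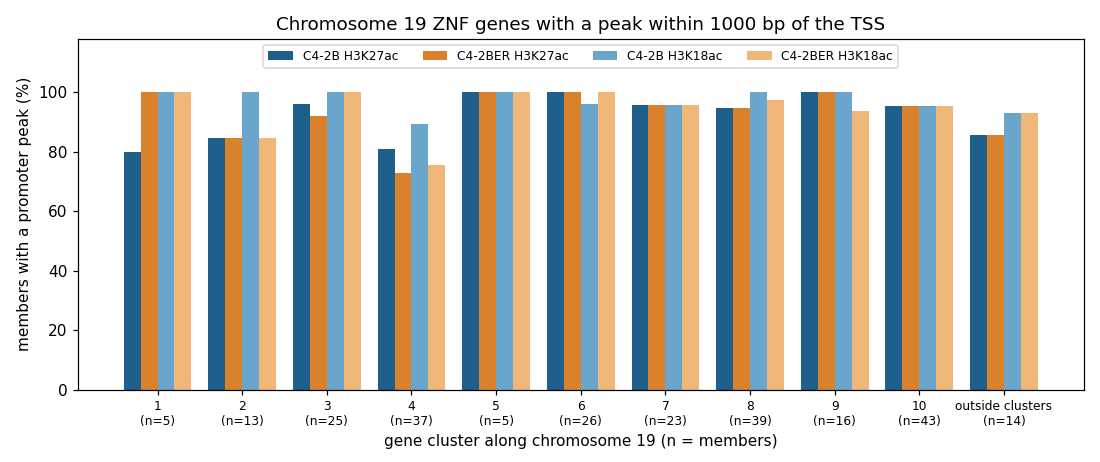
Percentage of chromosome 19 ZNF genes with a peak within 1000 bp of the TSS, by gene cluster (x axis, with the number of genes) and peak list (bar color), on an axis that starts at 0. The bars of cluster 4 are the lowest for C4-2BER H3K27ac at 73.0%, and those of clusters 5 to 10 stay above 90%.

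Cluster 4 (chr19:19668839-24129968, GRCh38) held 4 of the 8 ZNF genes without a peak, and they lie close to each other. In gene order, ZNF43, ZNF208, ZNF257, ZNF676, ZNF729, ZNF98, ZNF492, ZNF99, ZNF723 and ZNF728 are 10 consecutive genes spread over 1167 kb. For H3K27ac, each of them either had no peak in C4-2BER or had a fold enrichment there of 0.5 or less of that in C4-2B. The stretch and its ends were picked out after the values were seen. ZNF676, ZNF98, ZNF492, ZNF99 and ZNF723 had no H3K27ac peak in C4-2B either, so they show no difference between the lines in this mark. Genes with a C4-2B peak only or a ratio of 0.5 or lower formed a run of 3, from ZNF43 to ZNF257. ZNF676, ZNF98, ZNF492 and ZNF99 had no peak in any list. ZNF208, which encodes 36 fingers, the most of all the genes, had weak peaks in C4-2B, 3.86 for H3K27ac and 2.98 for H3K18ac, and none in C4-2BER. ZNF729, with 34 fingers, gave 3.29 and 2.72 in C4-2B and likewise no peak in C4-2BER. ZNF723 had a single peak, of H3K18ac in C4-2B, with a fold enrichment of 2.48.

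The 3 genes of this stretch with H3K27ac peaks in both lines, ZNF43 and ZNF728 at its ends and ZNF257 inside it, were lower in C4-2BER. ZNF43 had an H3K27ac fold enrichment of 17.8 in C4-2B and 7.83 in C4-2BER (log2 ratio −1.19), and an H3K18ac fold enrichment of 9.15 and 4.11 (−1.15). For ZNF257 the values were 8.93 and 4.02 for H3K27ac (−1.15) and 4.69 and 2.20 for H3K18ac (−1.09). For ZNF728 they were 18.5 and 8.82 (−1.07) and 7.99 and 4.17 (−0.94). Relative to the median of all genes, the H3K27ac log2 ratios of ZNF43, ZNF257 and ZNF728 were −0.68, −0.64 and −0.56, none of them past the ratio of 0.5. The next genes outward had peaks in all lists. ZNF100, beyond ZNF43, gave H3K27ac fold enrichments of 32.4 and 20.8. ZNF730, beyond ZNF728, was lower at 7.97 and 7.43, and it was followed by ZNF724 (18.6 and 10.7) and ZNF91 (23.2 and 15.7).

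Between the promoter windows of ZNF257 and ZNF728 lie 949 kb. In C4-2B, 3 H3K27ac and 12 H3K18ac peaks lay wholly inside this interval, whereas in C4-2BER there were 0 of either mark. Peak lists give no read coverage, so whether reads covered this interval equally in both lines was not tested. Over the whole chromosome, H3K18ac peaks numbered 5891 in C4-2B and 4381 in C4-2BER, and H3K27ac peaks 2982 and 2721. In cluster 4, H3K18ac peaks away from any TSS numbered 123 and 56, and those of H3K27ac 27 and 30. The nearest C4-2BER H3K27ac peak was 144 kb from the TSS of ZNF676, 369 kb from that of ZNF98, 368 kb from that of ZNF492 and 218 kb from that of ZNF99. A further gene of cluster 4 outside the stretch, ZNF681, had peaks in C4-2B only, with 3.42 for H3K27ac and 2.85 for H3K18ac. Its neighbour ZNF675, which encodes a protein known to dampen TRAF6 signaling, had one of the 2 highest H3K27ac values of all the ZNF genes in C4-2BER, 22.8, after 28.2 in C4-2B.

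**Figure D2:**
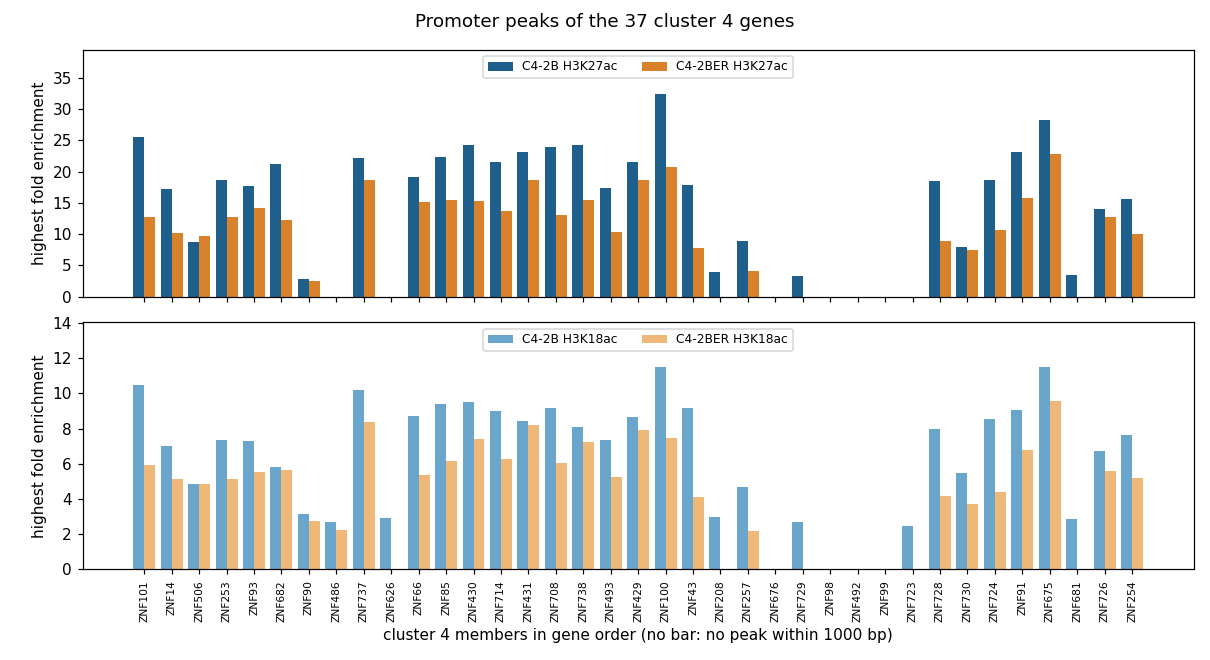
Highest fold enrichment (y axis) of H3K27ac (top) and H3K18ac (bottom) within 1000 bp of the TSS for the 37 cluster 4 genes in gene order, with C4-2B in blue and C4-2BER in orange; a missing bar means no peak. The gap from ZNF208 to ZNF723 holds no C4-2BER bar apart from those of ZNF257.

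Many promoters of cluster 4, with and without peaks, had similar upstream sequences. The 180 bases before the TSS are shown for 3 genes with peaks in all 4 lists (ZNF91, ZNF724, ZNF728), 2 with peaks in C4-2B only (ZNF681, ZNF723) and 1 with no peak (ZNF492). Each is written 5′ to 3′ on the strand of its gene, from GRCh38, and capitals mark the ETS motif CCGGAAG or its reverse complement. The positions are chr19:23395472-23395651 for ZNF91, chr19:23250395-23250574 for ZNF724, chr19:23003177-23003356 for ZNF728, chr19:23758892-23759071 for ZNF681 (minus strand for these 4), and chr19:22832111-22832290 for ZNF723 and chr19:22634144-22634323 for ZNF492 (plus strand).
ZNF91: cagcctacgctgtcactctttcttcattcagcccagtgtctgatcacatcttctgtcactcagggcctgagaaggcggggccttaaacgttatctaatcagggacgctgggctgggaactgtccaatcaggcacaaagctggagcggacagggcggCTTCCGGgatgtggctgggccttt
ZNF724: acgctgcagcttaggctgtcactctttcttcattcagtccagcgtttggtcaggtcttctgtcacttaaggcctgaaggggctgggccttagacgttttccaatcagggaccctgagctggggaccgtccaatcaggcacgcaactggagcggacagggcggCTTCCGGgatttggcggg
ZNF728: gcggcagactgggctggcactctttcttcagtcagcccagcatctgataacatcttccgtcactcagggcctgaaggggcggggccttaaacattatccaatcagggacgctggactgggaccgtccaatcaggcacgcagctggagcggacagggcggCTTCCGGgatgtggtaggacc
ZNF681: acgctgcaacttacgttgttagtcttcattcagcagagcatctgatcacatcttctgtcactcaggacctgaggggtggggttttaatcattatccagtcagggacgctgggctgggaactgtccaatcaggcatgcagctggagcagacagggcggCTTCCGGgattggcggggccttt
ZNF723: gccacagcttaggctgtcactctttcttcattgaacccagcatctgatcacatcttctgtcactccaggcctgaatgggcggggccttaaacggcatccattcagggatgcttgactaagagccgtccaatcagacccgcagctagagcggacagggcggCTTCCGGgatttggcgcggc
ZNF492: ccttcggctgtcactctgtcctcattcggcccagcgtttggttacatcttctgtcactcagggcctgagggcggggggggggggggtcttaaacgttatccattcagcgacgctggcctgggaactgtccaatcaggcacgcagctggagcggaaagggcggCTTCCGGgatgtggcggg

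In a global alignment, ZNF492 matched ZNF91 at 80.3% of the aligned positions, ZNF681 at 82.0%, ZNF723 at 79.3%, ZNF724 at 80.1% and ZNF728 at 84.2%. Over cluster 4, 28 of the other 36 genes had at least 70% identity with ZNF91 in these 180 bases. They included 19 of the 26 others with peaks in all 4 lists (median identity 80.1%), all 6 with peaks in 1 or 2 lists (83.0%) and 3 of the 4 with no peak (80.2%). The ranges of the 3 groups overlapped, at 46.9% to 90.6%, 71.1% to 85.5% and 46.4% to 80.6%. Among the genes with peaks in all 4 lists, those below 70% were ZNF253 (68.5%), ZNF682 (67.2%), ZNF675 (61.6%), ZNF101 (55.7%), ZNF14 (52.4%), ZNF708 (48.4%) and ZNF429 (46.9%). Identity was taken to ZNF91 alone, and the part of upstream sequence in acetylation was not tested. The exception among the genes with no peak was ZNF676 at 46.4%, and the annotated canonical TSS of ZNF676 has a GC content of 39.6% over 500 bp on each side. A peak was found at another annotated TSS of this gene.

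Reads from near-identical copies can fail the authors' filter on mapping quality, and cluster 4 had the least unique promoters. Of the 31-base words within 1000 bp of the TSS, a median of 76.7% occurred once in the genome in cluster 4, as compared to 90.2% over all 246 genes. The median was 74.1% for the 8 genes without a peak, 82.6% for the 17 with peaks in 1 to 3 lists and 91.1% for the 221 with peaks in all 4. The ranges of the first and the last of these groups overlapped, 70.9% to 99.1% and 50.1% to 100%, and the part of sequence uniqueness in the missing peaks was not tested. ZNF468 in cluster 8, the least unique promoter at 50.1%, had peaks in all 4 lists, as did ZNF28 at 52.0% and ZNF417 at 52.1%. ZNF91 itself was at 75.8% and ZNF492 at 74.1%.

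The other 4 genes without a peak lay apart. ZNF154, whose promoter is known to be hypermethylated in many tumors, had its nearest peak 17.9 kb away in both C4-2B lists, and 17966 bp (H3K27ac) and 17997 bp (H3K18ac) away in C4-2BER. ZNF404 in cluster 7 had its nearest peak between 17.4 and 17.6 kb away, and ZNF587B in cluster 10 between 9.23 and 9.38 kb away. Both had a peak at another of their annotated TSSs. ZNF536, outside the clusters, encodes a neuronal zinc finger protein that restrains neuron differentiation. Its nearest H3K27ac peak was 144 kb away in C4-2B and 2.34 kb away in C4-2BER, and its nearest H3K18ac peaks were 1.50 and 2.21 kb away. The latter 3 peaks were thus within 2.34 kb of the canonical TSS but outside its window of 1000 bp. ZNF536 too had a peak at another of its annotated TSSs.

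Fold enrichment at chromosome 19 ZNF promoters was typical of promoters with a peak. The median H3K27ac fold enrichment was 18.8 in C4-2B (all genes 18.2) and 12.7 in C4-2BER (12.4), at percentiles 53.0 and 52.5 of all promoters with a peak. The median for H3K18ac was 7.74 (7.00) and 5.54 (5.59), at percentiles 58.6 and 49.1. ZNF genes of other chromosomes had higher medians in all 4 lists, 21.9, 13.9, 8.56 and 6.34 in the same order.

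The highest values were found in cluster 10 and, for C4-2BER, also in clusters 4 and 7. ZNF549 had the highest H3K27ac fold enrichment in C4-2B, 35.3, followed by ZNF606 with 33.6. For H3K18ac in C4-2B, ZNF606 led with 13.8, followed by ZNF773 and ZNF549 with 13.7 each. In C4-2BER, ZNF544 led H3K27ac with 23.3, and ZNF428 in cluster 7 led H3K18ac with 10.7, ahead of ZNF544 with 10.2. ZNF544 was nearly the same in both lines, as C4-2B gave 23.4 for H3K27ac and 9.59 for H3K18ac.

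H3K27ac and H3K18ac fold enrichments were lower in C4-2BER than in C4-2B at most ZNF promoters, as at most promoters of the genome. Over the 223 ZNF genes with an H3K27ac peak in both lines, the median log2 ratio was −0.53 (95% order-statistic interval over genes, −0.59 to −0.47), and that of all genes was −0.51. Over 228 ZNF genes the H3K18ac median was −0.42 (−0.45 to −0.38), and that of all genes was −0.34. A higher value in C4-2BER was seen at 19 of the 223 genes for H3K27ac (8.52%, all genes 11.8%) and at 13 of the 228 for H3K18ac (5.70%, all genes 14.2%). The intervals cover the spread over genes only, not error between libraries. Because the whole list is shifted, ratios are also given below relative to the median of all genes.

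Increased genes were those where only C4-2BER had a peak or where its fold enrichment was 2 or more times that of C4-2B. Decreased genes were those where only C4-2B had a peak or where the ratio was 0.5 or lower. For H3K27ac, 3 of the 230 ZNF genes with a peak in either line were increased (1.30%, against 4.61% of all genes) and 28 were decreased (12.2%, against 11.2%). Peaks in C4-2BER only were found at 2 of them (background 3.75%) and in C4-2B only at 5 (background 3.17%). For H3K18ac, 1 of 238 was increased (0.420%, against 2.44%) and 15 were decreased (6.30%, against 7.14%). Peaks in C4-2BER only were found at 1 (background 2.32%) and in C4-2B only at 9 (background 5.47%). For each mark taken alone, the shares of decreased ZNF genes were thus near the background.

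The split between directions depended on the scaling. With the median of all genes subtracted from the log2 ratio, 6 ZNF genes were increased and 5 decreased for H3K27ac (all genes 6.54% and 3.77%), and 1 was increased and 9 decreased for H3K18ac (2.80% and 5.60%). After this centring the decreased genes were those with a peak in C4-2B only, which have no ratio and keep the call under any scaling. The 5 of H3K27ac were ZNF491 and ZNF439 of cluster 3 and ZNF208, ZNF729 and ZNF681 of cluster 4. The 9 of H3K18ac were the same 3 of cluster 4 with ZNF626, ZNF723, ZNF177, ZNF560, ZNF577 and ZNF835.

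No ZNF gene was increased for both marks (70 of 20033 over all genes). Decreased for both were 9 of the 246, a larger share than the 238 of 20033 over all genes. ZNF genes of other chromosomes gave 3 of 262, and the other chromosome 19 genes 11 of 1230. The 9 were ZNF43, ZNF208, ZNF257, ZNF729 and ZNF681 of cluster 4, ZNF599 of cluster 5, ZNF470 of cluster 9, and ZNF549 and ZNF671 of cluster 10. At ZNF599 the H3K27ac fold enrichment was 25.1 in C4-2B and 10.8 in C4-2BER (log2 ratio −1.21, or −0.70 relative to all genes), and the H3K18ac values were 10.6 and 4.90 (−1.12). At ZNF470 the H3K27ac values were 29.8 and 13.0 (−1.19) and the H3K18ac values 13.1 and 6.47 (−1.02). With the scaling above, 3 of these 9 stayed decreased in both marks, namely ZNF208, ZNF729 and ZNF681. These 3 have no C4-2BER peak and so no ratio, and no scaling could have changed their call. Their C4-2B peaks were weak, and none of the 3 genes had a peak in any list once a fold enrichment of at least 4 was required, nor had ZNF729 and ZNF681 at a −log10 q-value of at least 5.

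**Figure D3:**
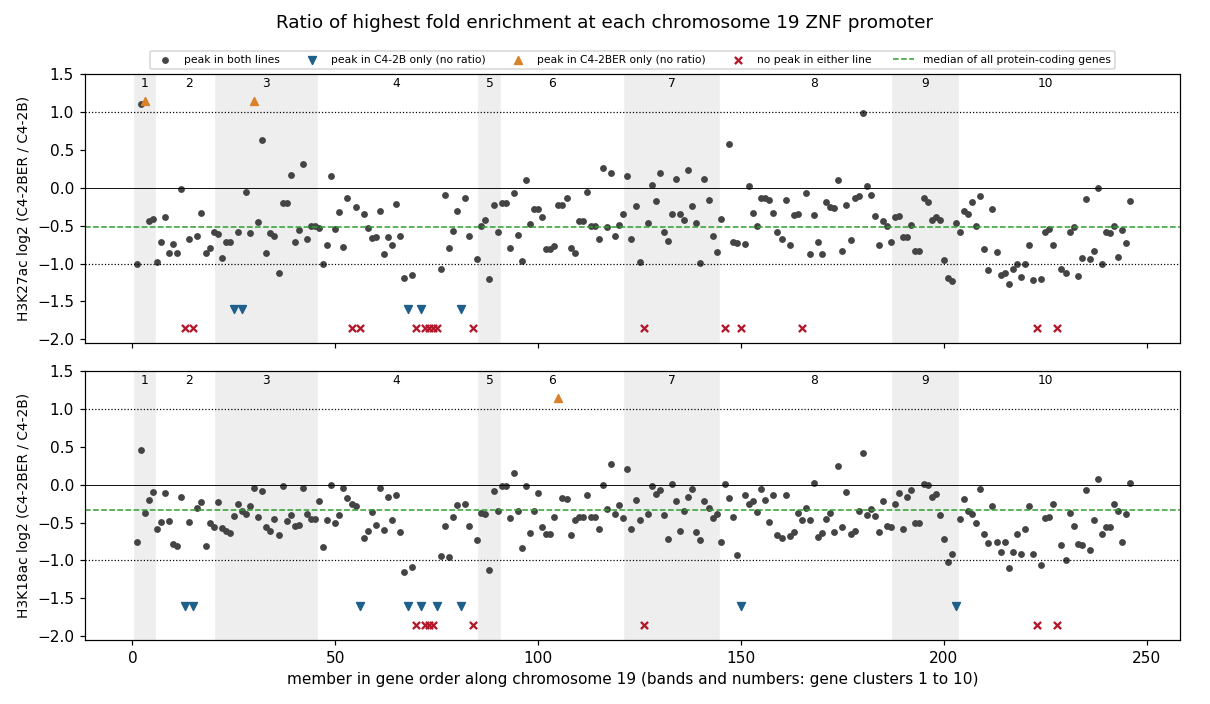
Log2 of C4-2BER over C4-2B highest fold enrichment (y axis) at each of the 246 promoters in gene order (x axis), for H3K27ac (top) and H3K18ac (bottom); dotted lines mark a ratio of 2 and 0.5, and the dashed line is the median of all protein-coding genes. Most points lie below 0, those of the first part of cluster 10 lie lowest for H3K27ac, and triangles and crosses mark genes without a ratio.

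The increased genes were few. A low or missing C4-2B peak is part of that call, so their low C4-2B values are not a separate result. ZNF555 had H3K27ac fold enrichments of 2.50 in C4-2B and 5.40 in C4-2BER (log2 ratio 1.11) and H3K18ac values of 3.08 and 4.24 (0.46). At its cluster 1 neighbour ZNF556 only C4-2BER had an H3K27ac peak, of 3.74, and ZNF763 in cluster 3 was alike with 3.07. ZNF665 in cluster 8 was next, at 3.01 and 5.98 in H3K27ac (0.99) and 3.50 and 4.67 in H3K18ac (0.42). ZNF878 gave 6.13 and 9.52 for H3K27ac (0.63) but 5.61 and 5.30 for H3K18ac (−0.08). For H3K18ac, ZNF585A alone had a peak in C4-2BER only, at 3.04, and ZNF780B gave 6.08 and 7.35 (0.27).

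Cluster 10 (chr19:57191500-58481230, GRCh38) had the lowest H3K27ac ratios. Its median log2 ratio over 41 genes was −0.76 (−1.0 to −0.58) for H3K27ac and −0.56 (−0.76 to −0.39) for H3K18ac. The H3K27ac medians of the other clusters were between −0.68 and −0.34. Relative to all genes the cluster 10 medians were −0.25 and −0.22, and those of the other 180 ZNF genes with both ratios were 0.02 and −0.06. At 29 of the 41 genes both ratios were below the medians of all genes, as compared to 75 of the 180. This count was not made over all genes, whose ratios of the marks were themselves related (Spearman's rho 0.65).

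Of the 28 ZNF genes decreased for H3K27ac, 14 were in cluster 10 and 7 in cluster 4. An H3K27ac peak in C4-2B was present at 41 genes of cluster 10 and 30 of cluster 4. Over all genes with a peak in either line, 11.2% were decreased. The longest run of consecutive decreased genes was also in cluster 10, with 7 genes from ZNF419 to ZNF134 over 126 kb (ZNF419, ZNF773, ZNF549, ZNF550, ZNF416, ZNF530, ZNF134). Their H3K27ac fold enrichments were from 20.2 (ZNF550) to 35.3 (ZNF549) in C4-2B and from 9.63 (ZNF550) to 14.7 (ZNF549) in C4-2BER. The medians of all ZNF genes with a peak were 18.8 and 12.7. A high C4-2B value favours the decreased call, so the C4-2B heights are not a separate result. The log2 ratios of ZNF549, −1.27 for H3K27ac and −1.10 for H3K18ac, were the lowest of all ZNF genes for the first mark and among the 3 lowest for the second. Both lines had 8 peaks of each mark in this stretch, and each of the 7 genes had an H3K27ac peak in both lines. Whether all peaks lay at the same sites was not tested. In the same stretch the gene ZIK1, also a zinc finger gene but with another name, gave 4.59 and 2.78 for H3K27ac (−0.72). After the median of all genes was subtracted, none of the 14 stayed past the ratio of 0.5.

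ZNF671 and ZNF154 follow each other in cluster 10, and both are known for promoter methylation in tumors. ZNF671 was weakly acetylated, with H3K27ac fold enrichments of 7.54 in C4-2B and 3.27 in C4-2BER (log2 ratio −1.21) and H3K18ac values of 6.23 and 2.98 (−1.06), while ZNF154 had no peak. The 180 bases before the TSS are shown for this pair, at chr19:57727625-57727804 for ZNF671 and chr19:57709205-57709384 for ZNF154 (both minus strand, GRCh38), with the ETS motif in capitals. ZNF671 holds one and ZNF154 none.
ZNF671: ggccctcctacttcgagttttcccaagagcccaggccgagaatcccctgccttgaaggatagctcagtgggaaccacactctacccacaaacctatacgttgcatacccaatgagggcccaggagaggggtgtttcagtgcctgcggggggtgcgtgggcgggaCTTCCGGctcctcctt
ZNF154: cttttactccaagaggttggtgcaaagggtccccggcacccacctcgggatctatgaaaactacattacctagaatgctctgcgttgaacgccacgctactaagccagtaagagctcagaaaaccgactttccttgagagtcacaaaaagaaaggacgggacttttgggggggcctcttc

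The pair matched at 49.7% of the aligned positions, close to the identity of unrelated promoters such as ZNF671 and ZNF91 (50.3%). At the far end of cluster 10, ZNF274, whose protein guides SETDB1 to the 3′ ends of other zinc finger genes, gave 24.4 and 13.7 for H3K27ac (−0.83) and 9.97 and 7.18 for H3K18ac (−0.47). ZNF135 in the same cluster was weak in both lines, with H3K27ac values of 2.65 and 2.38.

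**Figure D4:**
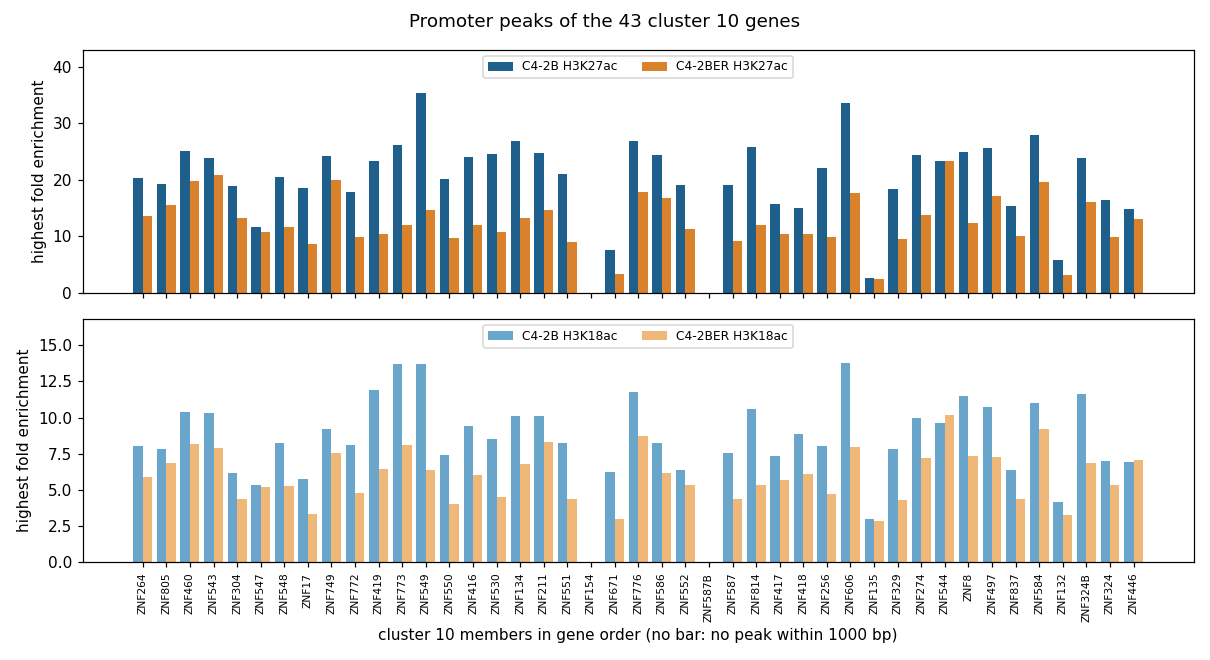
Highest fold enrichment (y axis) of H3K27ac (top) and H3K18ac (bottom) within 1000 bp of the TSS for the 43 cluster 10 genes in gene order, with C4-2B in blue and C4-2BER in orange; a missing bar means no peak. From ZNF419 to ZNF134 each H3K27ac bar of C4-2BER is at most 0.5 of that of C4-2B, and ZNF544 is almost level.

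ZNF genes with a described function were mostly typical. ZNF91 and ZNF93 of cluster 4, which repress SVA and LINE-1 retroelements, gave H3K27ac log2 ratios of −0.57 and −0.32. The corresponding fold enrichments of ZNF93 were 17.7 and 14.1. ZNF808, which silences MER11 elements and is required for pancreas development, gave 25.8 and 14.0 (−0.88), and ZNF649, which binds LINE-1 elements, gave 23.5 and 14.1 (−0.74). All 4 were higher in C4-2B, and none was past the ratio of 0.5.

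ZNF331, an imprinted gene at the end of cluster 8, was among the stronger promoters, at 30.8 and 18.7 in H3K27ac (−0.72) and 11.6 and 7.86 in H3K18ac (−0.56). ZNF382, reported as a tumor suppressor that represses NF-κB signaling, gave 22.6 and 11.5 for H3K27ac (−0.97). ZNF473, a component of the histone pre-mRNA processing machinery, gave 20.6 and 12.6 (−0.71). ZNF350, a partner of BRCA1, was lower with 8.66 and 6.87 (−0.33), and ZNF175 gave 9.30 and 5.61 (−0.73). ZNF224, a repressor of the aldolase A gene, was slightly higher in C4-2BER for H3K27ac, 11.8 and 12.8 (0.12), but not for H3K18ac, 4.76 and 4.11 (−0.21). ZNF541, a gene of the male germline, had no H3K27ac peak and weak H3K18ac peaks of 2.50 and 2.52.

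The acetylated domains of chromosome 19 ZNF promoters were narrow. The median H3K27ac peak was 1553 bp wide in C4-2B and 1796 bp in C4-2BER, compared with 2359 and 2829 bp over all genes. For H3K18ac the medians were 1467 and 1533 bp, compared with 2269 and 2448 bp. These widths are at percentiles 24.4 to 26.5 of all promoters with a peak, whereas the heights were near the middle. ZNF genes of other chromosomes had widths between these and those of all genes, with medians of 2054 and 2498 bp for H3K27ac and 1905 and 2018 bp for H3K18ac. The other chromosome 19 genes had wide peaks, with H3K27ac medians of 3669 and 4325 bp.

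Around the TSS the peaks were placed a little downstream. The H3K27ac peak over the TSS extended a median of 632 bp upstream and 898 bp downstream in C4-2B, and 737 and 1017 bp in C4-2BER. At 2000 bp downstream of the TSS, 6.50% of ZNF genes lay under a C4-2B H3K27ac peak, as compared to 20.1% of all genes and 32.0% of the other chromosome 19 genes. At the 3′ end of the gene, 13 of 242 ZNF genes (5.37%) had an H3K27ac peak within 1000 bp in C4-2B and 9 (3.72%) in C4-2BER, compared with 24.0% and 25.5% of all genes. For H3K18ac the shares were 8.26% and 4.55%, compared with 40.6% and 34.0%.

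**Figure D5:**
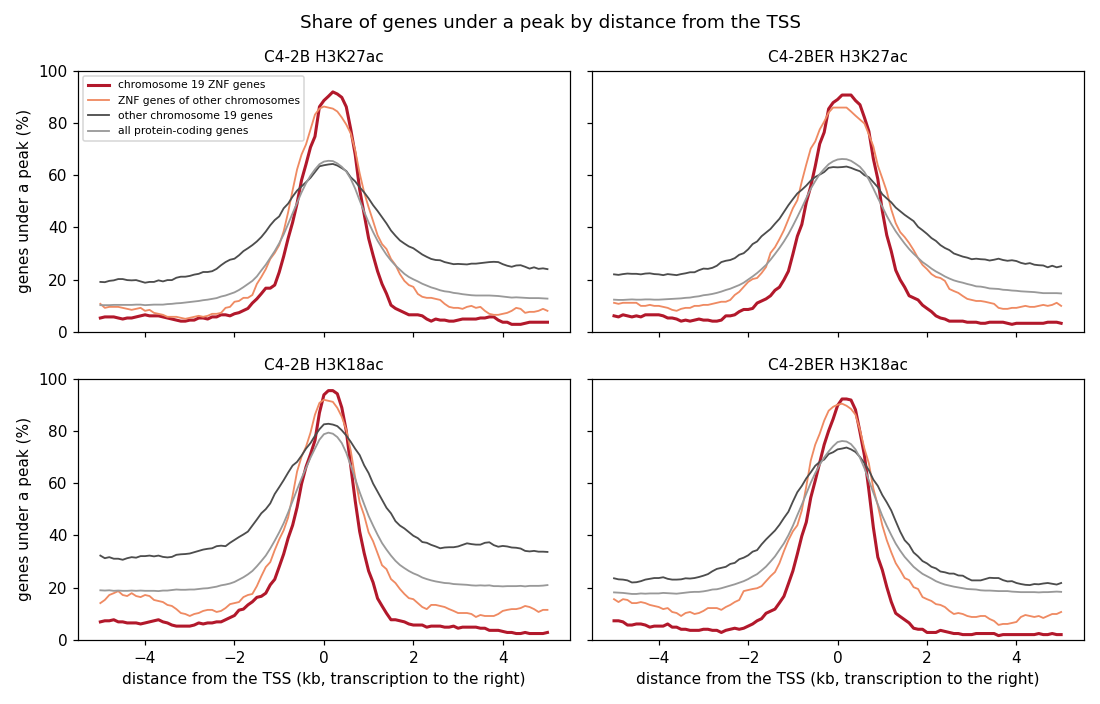
Percentage of genes under a peak (y axis) by distance from the TSS in kb (x axis, transcription to the right), 1 panel per peak list, for the 246 chromosome 19 ZNF genes (dark red) and 3 comparison sets. The dark red curve is higher than that of all genes at the TSS (88.6% and 65.2% for C4-2B H3K27ac) and lower at 2 kb on either side.

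Cluster 9, from ZNF628 to ZNF835, was the exception in width, with median H3K27ac widths of 3011 and 3159 bp. It contains the widest H3K27ac peak of the ZNF genes in each line, that of ZNF787 in C4-2B (20888 bp, and 19036 bp in C4-2BER) and that of ZNF580 and ZNF581 in C4-2BER. The latter pair share 1 peak of 16527 bp in C4-2B and 28952 bp in C4-2BER. The neighbour of ZNF787, ZNF444, had peaks of 12759 and 12386 bp. In cluster 10 the peak of ZNF837 was the next widest in C4-2B after that of ZNF787, at 17865 bp, and measured 5660 bp in C4-2BER. Cluster 7 had the narrowest medians, 1188 and 1364 bp, and also the lowest median H3K27ac fold enrichment in C4-2B, 11.9.

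With promoters included in both, a smaller share of the cluster length than of the rest of the chromosome lay under peaks. Peaks of H3K27ac covered 4.67% of the 14.3 Mb of cluster length in C4-2B and 5.04% in C4-2BER, and 16.2% and 17.3% of the rest of the chromosome. H3K18ac covered 6.74% and 4.98% of the clusters, and 28.9% and 22.3% of the rest. Of 384 C4-2B H3K27ac peaks in clusters, 209 were at a ZNF TSS and 113 were away from any TSS, and in C4-2BER the counts were 206 and 106 of 370. H3K18ac peaks away from any TSS numbered 395 of 716 in C4-2B and 188 of 474 in C4-2BER. Coverage by cluster ran from 1.76% in cluster 4 to 11.8% in cluster 9 for H3K27ac in C4-2B.

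ZNF promoters shared several sequence features that the choice of genes did not use. The ETS motif CCGGAAG was present on either strand in the 300 bases around the TSS (250 before, 50 after) of 110 ZNF genes (44.7%), as compared to 14.1% of all promoters of this length, 31.7% of ZNF genes on other chromosomes and 15.1% of the other chromosome 19 genes. In cluster 4 there were 25 matches, all in the orientation shown in the sequences above, and 23 of them started between 34 and 17 bases before the TSS. Of the 97 matches in the other genes, 16 did. The ends of this window were taken from the cluster 4 positions after they were seen, which favours cluster 4 in the comparison. The CCAAT box was present in 52.8% (all genes 36.1%), the GC box GGGCGG in 67.5% (61.3%) and the TATA box TATAAA in 2.85% (9.71%).

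The ETS motif did not separate acetylated from unacetylated ZNF promoters. H3K27ac peaks in C4-2B were found at 93.6% of ZNF genes with the motif and 91.9% of those without it, whereas over all genes the shares were 92.6% and 65.3%. Of the 28 ZNF genes decreased for H3K27ac, 19 were among the 110 with the motif and 9 among the 136 without it. Over all genes, 285 of the 2824 with the motif and 1320 of the 17209 without it were decreased. Cluster 10, where 27 of 43 genes hold it, had 14 of the 28. The CCAAT box split the 28 more unevenly, with 24 among the 130 genes that hold it and 4 among the other 116. The CCAAT split was not counted over all genes. Ranked by GC content around the TSS, the 82 lowest, 82 middle and 82 highest ZNF genes held 2, 17 and 9 of the 28. Over all genes in the same GC ranges, 212 of 5265, 346 of 3677 and 999 of 9965 were decreased. The part of these features in the decrease was not tested. A match is a sequence of letters and not a bound site.

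ZNF promoters of low GC content were acetylated more often than all promoters in the same GC range, a set that includes them. Among the 82 ZNF genes of lowest GC content over 500 bp on each side of the TSS (36.8% to 55.5%), 86.6% had an H3K27ac peak in C4-2B, as compared to 37.3% of all genes in that range. The GC content within that range was not matched, with a median of 52.9% for the ZNF genes and 49.5% for all genes. Among the 82 in the middle (up to 60.7%) the shares were 93.9% and 74.7%, and among the 82 of highest GC content 97.6% and 86.2%. A KRAB box was matched in the translated canonical coding sequence of 157 ZNF genes (63.8%), and C4-2B H3K27ac peaks were found at 93.0% of these and 92.1% of the others. The letter pattern used can miss diverged KRAB boxes. The median number of fingers was 12, with a range from 1 to 36.

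Another TSS of a protein-coding or lncRNA gene on the opposite strand lay within 1000 bp of 55 ZNF genes. In 7 pairs of ZNF genes a single H3K27ac peak covered the windows of both, namely ZNF490 and ZNF791, ZNF565 and ZNF146, ZNF829 and ZNF568, ZNF569 and ZNF570, ZNF571 and ZNF540, ZNF524 and ZNF865, and ZNF580 and ZNF581. The peaks of these pairs are therefore not independent. The ratios of the marks were related across genes, with Spearman's rho of 0.76 over 221 ZNF genes and 0.65 over 13292 genes of the genome. Genes are not independent replicates, and the lists share cells and background.

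Genes that encode the silencing partners of KRAB zinc finger proteins all had promoter peaks in the 4 lists (16 of 16), as did 66.4% of all genes. TRIM28, the KRAB-binding corepressor, gave H3K27ac fold enrichments of 20.3 in C4-2B and 11.6 in C4-2BER (log2 ratio −0.81), and SETDB1 gave 10.3 and 7.79 (−0.40). The median log2 ratio of the 16 was −0.72 for H3K27ac (all genes −0.51) and −0.37 for H3K18ac (all genes −0.34). Decreased for H3K27ac were 3 of 16, where the share over all genes was 11.2%, namely CHD4 (26.6 and 12.8, −1.06), TASOR (29.0 and 13.8, −1.07) and PPHLN1 (22.9 and 10.5, −1.12), and 0 were decreased for H3K18ac or increased for either mark. CHD4 is a remodeling subunit of the NuRD complex, and TASOR and PPHLN1 are subunits of the HUSH complex. With the median of all genes subtracted, these 3 were no longer past the ratio of 0.5.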

How the data were processed

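The samples were H3K27ac and H3K18ac ChIP-seq libraries from both cell lines. The authors used bowtie2 for alignment to GRCh38, took out alignments that were duplicated, of low mapping quality or in blacklisted regions, merged the replicates and called peaks with macs2. The macs2 version and the use of the input libraries are not given in the sources used here. The deposited lists give each peak a fold enrichment (a ratio of ChIP signal to local background) and a −log10 q-value from the authors' peak caller, which served only as an alternative filter. No list held a peak past the end of a GRCh38 chromosome. Other data types of the study were not analysed here.

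Genes, canonical TSSs and coding sequences were taken from GENCODE release 44 and sequence from GRCh38. The members, lists and settings were chosen with earlier results of these data known. A gene's value in a list was the highest fold enrichment of the peaks within 1000 bp of its TSS, and its width that of the same peak. Clusters were runs of at least 5 members with gaps of at most 500000 bp. GC content used 500 bp on each side of the TSS, and motifs were searched on both strands of the 300 bases from 250 before to 50 after it. The last letters of CCGGAAG can overlap the first of AAGATGGCG, another motif searched, which was found in 3.66% of member promoters and 2.84% of all. Fingers, KRAB and SCAN matches came from letter patterns in translated coding sequences, and 3 members matched SCAN. Words of 31 bases were counted on both strands of chromosomes 1 to 22, X and Y. Identity came from a global alignment.

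Genes were named by rule: members increased or decreased in both marks, the 3 largest and 3 smallest ratios of a mark, the 2 highest and 2 widest peaks of a list, members without a peak, 15 members with a known role, and 16 cofactor genes. Other genes are named where a count or neighbour is described, and were picked after their values were seen. Pooled lists give no replicate error and unknown depth, so comparisons are descriptions without a test. The peak lookup and counts were tested on simulated data. The software was matplotlib 3.10.9, scipy 1.17.1, pandas 2.3.3 and numpy 2.4.6 under Python 3.11.15. Some members of the marker lists are not reported here.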

Additional observations from a re-analysis of the deposited data

How the results depend on the processing

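No paired analysis was possible because the authors merged the replicates before calling peaks, and for the same reason no replicate could be left out. Of 214 values recomputed under the alternatives for 26 results, 195 stayed within a factor of 1.5 (counts) or within the interval of the value (medians), 19 did not, and 0 changed sign. Subtracting the median of all genes from the log2 ratio gave 6 increased and 5 decreased members for H3K27ac and 9 decreased members for H3K18ac, with medians of −0.02 and −0.08. Subtracting the median of the GC bin gave 5 and 5 for H3K27ac and 9 decreased for H3K18ac, with medians of −0.05 and −0.08. Peaks with a fold enrichment of at least 4 left 3 members with H3K27ac in C4-2B only, and 2 with H3K18ac in C4-2BER only, which are also the 2 then increased. A −log10 q-value of at least 5 left 4 members with H3K27ac in C4-2BER alone and 2 in C4-2B alone, and 2 with H3K18ac in C4-2BER only, again the 2 increased. With symbols that end in the number, 0 members had H3K18ac in C4-2BER only and 0 were increased, since ZNF585A was left out. The count of members without any peak was 9 within 500 bp, 7 within 2000 bp, 4 at any annotated TSS, 28 with the fold minimum and 24 with the q-value minimum. ZNF98, ZNF492, ZNF99 and ZNF154 lacked a peak in each of these. Gaps of 250000 and 1000000 bp gave 13 and 9 clusters. A missing peak does not show that the mark is absent, since the threshold of a list depends on its unknown depth.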
